A study of Mus musculus with 12 samples.

Results

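The angiopoietins, the angiopoietin-like proteins and their Tie receptors are represented here by 6 genes: Angptl4, Angptl2, Angpt1, Angpt2, Tek and Tie1. Their members were taken as all non-control probes whose gene name in the scanner files is one of these 6, which gave 10 of 41174 probes, for 6 of 27701 named genes. The series holds 12 one-colour Agilent arrays of RNA from embryonic fibroblasts (MEFs) of mice, 3 in each of 4 groups. The groups were homozygous GR-C3 knockin MEFs with 100 nM dexamethasone (Dex) for 6 h, the same knockin MEFs with vehicle for 6 h, wild-type (WT) MEFs with 100 nM Dex for 6 h, and WT MEFs with vehicle for 6 h. Dex is a synthetic glucocorticoid, and GR is its receptor, encoded by Nr3c1, whose messenger RNA is read from several start codons. In the knockin the exon that holds these codons was replaced by a mutated copy that leaves intact the start of the GR-C3 isoform alone. All MEFs were made from E12.5 embryos on a C57Bl/6 background. The knockin line goes back to 1 embryonic stem cell clone, and the labels do not say whether the replicates of a group came from separate embryos or cultures, so the p-values cover only the spread among these arrays, which may be technical. The genes were chosen by family and on the lower Angptl4 signal under Dex in these arrays, so the Dex changes of the 6 genes are given as a description without p-values, and the tests below concern the genotypes and the difference between the Dex changes.

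Angpt1 is a secreted ligand that activates the receptor tyrosine kinase Tek, also called Tie2, on endothelial cells, and it is made mainly by mesenchymal and perivascular cells. Angpt2 binds the same receptor and, depending on the context, blocks or weakly activates it, and Tie1 is a related receptor that binds no angiopoietin with high affinity and modulates Tek. The angiopoietin-like proteins share the fold of the angiopoietins but do not act through Tek. Angptl4 inhibits lipoprotein lipase and is a known target of the PPAR lipid receptors and, in liver and fat, of glucocorticoids, while Angptl2 is a secreted factor linked to inflammation and matrix remodelling.

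The probes are shown because 3 of the genes are read by several of them and these did not all give the same result. Sequences are from the scanner files, positions are in build mm7, and exons were not assigned because no annotation of that build was used here. All probes are 60 bases long, 4 are printed whole and of the others the first 30 bases are given, in lower case throughout because no single motif is at issue. The pair for Tek lies at chr4:94134402-94134461 and chr4:94266776-94266835, and the longest run that they share is 4 bases.
Tek A_52_P234087: agttctcatagaacttagcagtgttacccc
Tek A_51_P130374: ctctaatgtgactgtatatactgctcggag
The pair for Angpt1 lies at chr15:42434991-42435050 and chr15:42504318-42504377.
Angpt1 A_52_P160328: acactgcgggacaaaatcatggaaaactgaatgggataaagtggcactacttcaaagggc
Angpt1 A_52_P574140: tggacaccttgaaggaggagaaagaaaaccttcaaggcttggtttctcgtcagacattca
Angptl2 was read by 3 probes, at chr2:33251044-33251103, chr2:33253893-33253950 and chr2:33237302-33237361.
Angptl2 A_52_P93256: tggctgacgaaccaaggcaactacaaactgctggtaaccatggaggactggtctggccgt
Angptl2 A_52_P853177: tgtatgctcttagacagcacatcacacgtg
Angptl2 A_52_P533930: cctgtgctaaatctctgaaaaagttaacta
Angptl4 (chr17:31849774-31849833), Angpt2 (chr8:18668127-18668186) and Tie1 (chr4:117847966-117848025) had 1 probe each.
Angptl4 A_51_P338443: atggtgctgttgtaggtgctgtggatgcac
Angpt2 A_51_P201982: acctatcttgatggcttagtttttaatggc
Tie1 A_51_P177171: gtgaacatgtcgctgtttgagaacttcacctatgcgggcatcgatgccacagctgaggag
The Tie1 probe was well above background on 0 of 12 arrays, and the other 9 probes were kept for the fit.

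A level below is the log2 processed signal minus the log2 of the 75th percentile of its array, so 0 is that percentile and each unit is a doubling, and levels are compared between arrays and not between probes. WT vehicle replicate 1 was alone on its slide and scan day and stood apart, with a Pearson correlation over genes of 0.983 with the other WT vehicle arrays, which correlated with each other at 0.998, and of 0.988 to 0.989 with the WT Dex arrays. Fkbp5, a classical Dex-induced gene, had levels of 0.46, 0.94 and 0.96 in GR-C3 Dex MEFs and -2.24, -2.38 and -2.23 in GR-C3 vehicle MEFs, then 2.16, 1.90 and 2.06 in WT Dex MEFs and 1.51, -2.64 and -2.74 in WT vehicle MEFs. On Fkbp5 this array lay near the WT Dex arrays and far above its own group, so several values are also given from the 11 arrays that remain without it. Fibroblast markers were well above background on every array (10 of 10). Of the 12 endothelial markers 10 were, or 9 on WT vehicle replicate 1, where the marker Erg had no value. Pecam1 and Cdh5, the defining endothelial junction genes, were so on 0 arrays. Fewer cells of a type and less RNA per cell cannot be told apart in these bulk samples. Slides held arrays of 1 genotype, except 1 slide with WT Dex and GR-C3 vehicle arrays, so no slide compares the genotypes under the same treatment.

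Angptl4 was lower with Dex in both genotypes and higher in GR-C3 than in WT MEFs under both treatments. Its levels were -0.29 and -0.24 in GR-C3 Dex MEFs, where the spot of replicate 2 carried a non-uniformity outlier call and was left out, against 0.48, 0.69 and 0.60 in GR-C3 vehicle MEFs. They were -1.63, -1.46 and -1.61 in WT Dex MEFs, against -1.27, -0.79 and -0.91 in WT vehicle MEFs. No 2 of the 4 groups overlapped, and their order from high to low was GR-C3 vehicle, GR-C3 Dex, WT vehicle and WT Dex. The highest WT level lay below the lowest GR-C3 level. The Dex change was -0.85 ± 0.15 in GR-C3 MEFs (log2, SE, 2 arrays against 3) and -0.58 ± 0.13 in WT MEFs, and -0.85 ± 0.10 and -0.72 ± 0.10 with 11 arrays. The WT vehicle array that stood apart had the lowest Angptl4 level of its group. Within slides, the Dex minus vehicle difference was -0.87 in GR-C3 MEFs, where 1 slide held 3 Dex arrays (2 with a usable spot) and 1 vehicle array, and -0.78 in WT MEFs, where 1 slide held 1 Dex and 2 vehicle arrays, so each rests on a single array on one side. With the flagged spot kept, at a level of 5.58, the GR-C3 change was 1.09 ± 1.19, and with normexp background correction of the mean signal the WT change was 0.23 ± 0.31, so the direction turned in each. Under that correction the median WT Dex change over all genes was 0.55, against -0.0016 in the main fit, and Angptl4 lay below that median.

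**Figure D1:**
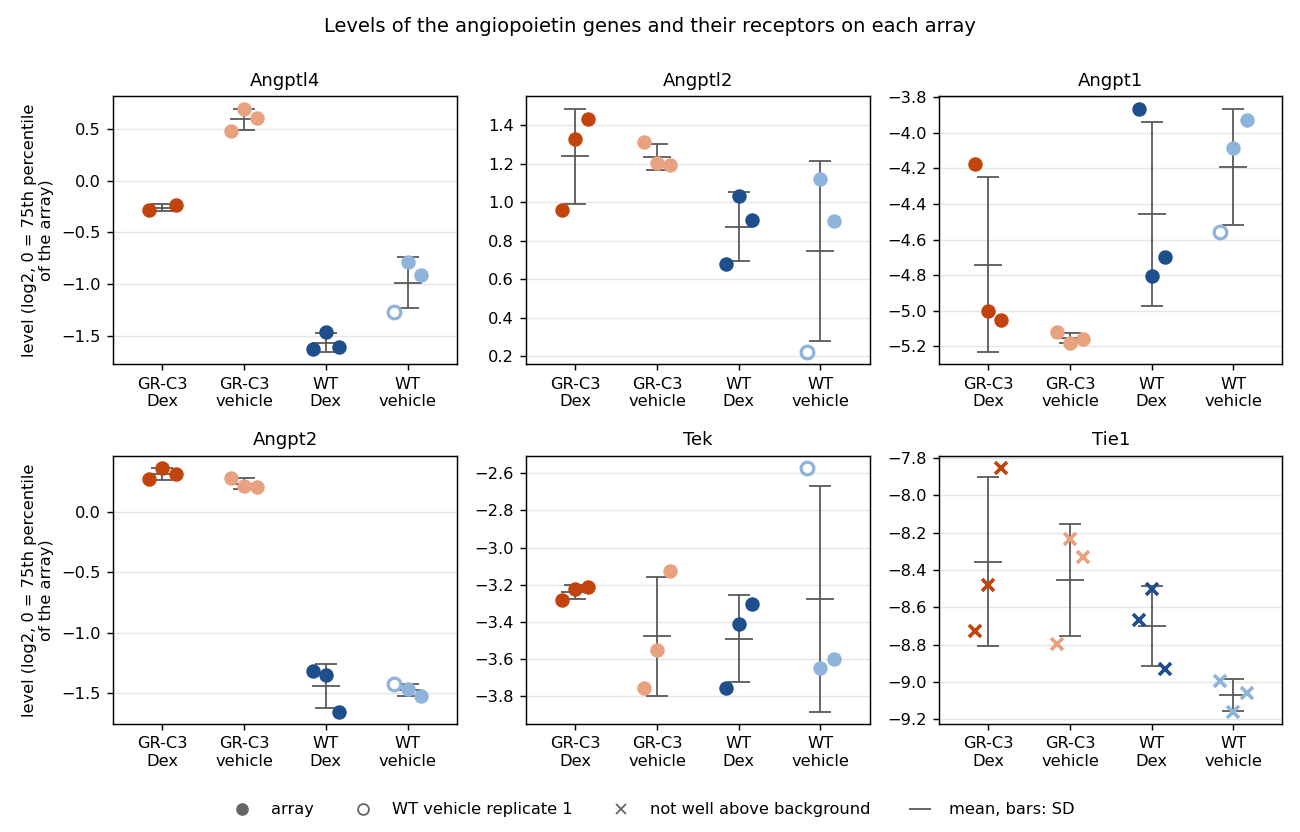
Level of each of the 6 genes on each array (vertical axis, log2 processed signal over the array's 75th percentile), with 1 panel per gene and 1 column per group. Points are arrays, the open circle is WT vehicle replicate 1, crosses are spots not well above background, horizontal lines are group means and bars are SDs. Angptl4 and Angpt2 separate the genotypes without overlap, Angptl4 also separates the treatments, and all 12 points of Tie1 are crosses.

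The genotype difference of Angptl4 was tested and passed under both treatments. Angptl4 was higher in GR-C3 than in WT MEFs by 1.58 ± 0.13 under vehicle (log2, SE, limma adjusted p = 2.62e-05) and by 1.31 ± 0.15 under Dex (limma adjusted p = 0.000189), that is 3.00-fold and 2.47-fold. With 11 arrays the differences were 1.44 ± 0.10 (adjusted p = 2.05e-05, limma) and 1.31 ± 0.10 (adjusted p = 2.18e-05, limma). The difference of the Dex changes, GR-C3 minus WT, was -0.28 ± 0.20 (limma adjusted p = 0.879) with 12 arrays and -0.14 ± 0.15 (limma adjusted p = 0.691) with 11, so a difference between the Dex changes was not detected. With normexp correction the genotype differences were 1.43 under vehicle (limma adjusted p = 0.0665) and 0.44 under Dex (limma adjusted p = 0.407), and with the flagged spot kept they were 1.58 (limma adjusted p = 0.367) and 3.26 (limma adjusted p = 0.0616), so both settings ended the calls. The adipocyte markers, 6 genes of a cell type in which Angptl4 is abundant, had summed signals of 7.08 to 8.22 times the 75th percentile in GR-C3 Dex MEFs and 3.02 to 3.28 in GR-C3 vehicle MEFs, against 10.2 to 14.3 in WT Dex and 3.01 to 13.0 in WT vehicle MEFs. Per array 2 to 6 of these 6 markers were well above background. Fabp4, a fatty acid carrier, made up nearly all of these sums, while the other 5 markers had levels of at most -4.24. Treated and vehicle sums did not overlap in GR-C3 MEFs. In WT MEFs they overlapped through WT vehicle replicate 1, where Fabp4 had a level of 3.69, against a mean of 1.59 on the other 2 WT vehicle arrays. The part of these markers in the Angptl4 levels was not tested.

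Angpt2, the context-dependent antagonist of Tek, was 3.28-fold higher in GR-C3 than in WT MEFs under vehicle and 3.39-fold higher under Dex. Its levels were 0.27, 0.37 and 0.32 in GR-C3 Dex and 0.29, 0.22 and 0.21 in GR-C3 vehicle MEFs, against -1.32, -1.35 and -1.66 in WT Dex and -1.43, -1.47 and -1.53 in WT vehicle MEFs. The 6 GR-C3 arrays all lay above the 6 WT arrays, while the treatments overlapped in both genotypes. The genotype difference was 1.71 ± 0.105 under vehicle (log2, SE, limma adjusted p = 1.62e-06) and 1.76 ± 0.105 under Dex (limma adjusted p = 1.35e-06). The Dex change was 0.08 ± 0.105 in GR-C3 and 0.03 ± 0.105 in WT MEFs, and the difference of the Dex changes, GR-C3 minus WT, was 0.05 ± 0.15 (limma adjusted p = 0.971). WT vehicle replicate 1 was within the range of the WT arrays here, and with 11 arrays the vehicle difference was 1.74 ± 0.11. Normexp correction ended the call under Dex, where the difference was 0.92 (limma adjusted p = 0.0617).

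Markers of perivascular mural cells, a known source of angiopoietins, differed between the genotypes in both directions. Of 8 such markers, under vehicle 2 were higher in GR-C3 than in WT MEFs (Des by 3.59 ± 0.15 and Kcnj8 by 0.57 ± 0.10, log2) and 2 were lower (Notch3 by -0.67 ± 0.14 and Cspg4 by -0.64 ± 0.15), beside 24.7% of all genes that passed. Under Dex 4 of the 8 were higher and 2 lower, beside 29.4% of all genes. Des encodes the muscle filament protein desmin, Kcnj8 a potassium channel subunit, Notch3 a mural Notch receptor and Cspg4 the NG2 proteoglycan. The 8 markers were well above background on all 12 arrays. Their summed signal, which did not overlap between the genotypes under vehicle and did under Dex, was 370 to 491 times the 75th percentile in GR-C3 vehicle MEFs against 320 to 360 in WT vehicle MEFs, and 405 to 469 in GR-C3 Dex MEFs against 329 to 431 in WT Dex MEFs. The marker Acta2 made up most of these sums, with mean levels of 8.54 in GR-C3 vehicle and 8.14 in WT vehicle MEFs. Pdgfrb, the next highest, had 4.28 and 4.45. The 12 endothelial markers summed to 5.82 to 5.96 in GR-C3 vehicle MEFs against 5.97 to 6.27 in WT vehicle MEFs, and to 6.21 to 6.29 in GR-C3 Dex MEFs against 6.55 to 7.57 in WT Dex MEFs. The sum of WT vehicle replicate 1 lacks Erg, which had no value there. On the other 2 WT vehicle arrays Erg had a mean level of 0.99, so the WT vehicle sums do not cover equal markers. Of the endothelial markers under vehicle, Emcn (a sialomucin, by 1.89 ± 0.12) and Kdr (a VEGF receptor, by 1.44 ± 0.14) were higher and Erg (an ETS transcription factor, by -3.76 ± 0.21, with a value on 2 WT vehicle arrays) was lower in GR-C3 than in WT MEFs. These were the calls among the 10 endothelial markers in the fit, beside 24.7% of all genes. Under Dex 2 of the 10 were higher and 2 lower, beside 29.4%. The part of these cell type markers in the Angpt2 levels was not tested.

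Angpt1, the activating ligand, was lower in GR-C3 than in WT MEFs under vehicle, where Angpt2 was higher. On A_52_P160328, the probe that stands for the gene, the levels were -4.17, -5.00 and -5.05 in GR-C3 Dex MEFs and -5.12, -5.18 and -5.16 in GR-C3 vehicle MEFs. In WT MEFs they were -3.86, -4.80 and -4.70 with Dex and -4.56, -4.08 and -3.93 with vehicle. The GR-C3 vehicle arrays lay together below all WT arrays, while replicate 1 of both Dex groups lay above its 2 partners. Angpt1 was lower in GR-C3 than in WT MEFs under vehicle by -0.96 ± 0.29 (log2, SE, limma adjusted p = 0.0311), or 1.95-fold, and by -1.15 ± 0.31 with 11 arrays (limma adjusted p = 0.0203). Under Dex the genotype difference was -0.29 ± 0.29 (limma adjusted p = 0.469). The call under vehicle held in 7 of the 12 fits that left out 1 array each, and with the slide as a block the difference was -0.26 ± 0.43 (limma adjusted p = 0.797). With normexp correction the sign turned, to 0.23 (limma adjusted p = 0.857).

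The second Angpt1 probe, A_52_P574140, gave the same sign under vehicle. Its levels were -5.41, -5.62 and -5.75 in GR-C3 Dex MEFs, against -6.33, -6.45 and -6.81 in GR-C3 vehicle MEFs, of which 1 of 3 was well above background. They were -6.08, -5.79 and -6.32 in WT Dex MEFs, of which 1 of 3 was well above background, against -5.04, -5.71 and -5.77 in WT vehicle MEFs. The genotype difference was -1.03 ± 0.21 under vehicle (log2, SE, limma adjusted p = 0.00593 over all probes kept), which neither the slide as a block (-0.68, limma adjusted p = 0.215) nor normexp correction (0.62, limma adjusted p = 0.754) kept. The Dex groups turned round, with GR-C3 above WT by 0.47 ± 0.21 (limma adjusted p = 0.121). The Dex change was 0.94 ± 0.21 in GR-C3 and -0.56 ± 0.21 in WT MEFs. Their difference was 1.499 ± 0.30 (limma adjusted p = 0.495) with 12 arrays and 1.27 ± 0.24 (limma adjusted p = 0.0488) with 11, a fit over all probes in which 0.893% of probes passed for this difference. On the other Angpt1 probe this difference was 0.68 ± 0.40 (limma adjusted p = 0.852) with 12 arrays.

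Tek, the angiopoietin receptor, gave 2 answers, 1 for each probe. On A_52_P234087 the levels were -3.28, -3.22 and -3.21 in GR-C3 Dex and -3.76, -3.55 and -3.13 in GR-C3 vehicle MEFs, against -3.75, -3.41 and -3.30 in WT Dex and -2.57, -3.65 and -3.60 in WT vehicle MEFs. The highest value was that of WT vehicle replicate 1, the vehicle groups overlapped, and the GR-C3 Dex arrays lay just above the WT Dex arrays. The genotype difference on this probe was -0.20 ± 0.27 under vehicle (limma adjusted p = 0.613) and 0.25 ± 0.27 under Dex (limma adjusted p = 0.497), and the Dex change was 0.24 ± 0.27 in GR-C3 and -0.22 ± 0.27 in WT MEFs. Without WT vehicle replicate 1 both negative values turned, to 0.15 ± 0.18 for the genotypes under vehicle (limma adjusted p = 0.57) and 0.14 ± 0.18 for Dex in WT MEFs.

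On A_51_P130374 the levels of Tek were -5.84, -5.75 and -5.54 in GR-C3 Dex and -5.25, -5.50 and -5.73 in GR-C3 vehicle MEFs, against -3.86, -4.48 and -3.67 in WT Dex and -4.24, -3.58 and -3.17 in WT vehicle MEFs. All 6 GR-C3 arrays lay below all 6 WT arrays, and every spot was well above background. Tek on this probe was lower in GR-C3 than in WT MEFs by -1.83 ± 0.27 under vehicle (log2, SE, limma adjusted p = 0.000794) and by -1.71 ± 0.27 under Dex (limma adjusted p = 0.00112). In the fit over all 30923 probes kept, 23.3% of probes passed for the genotypes under vehicle and 27.6% under Dex. With the slide as a block the difference under Dex was -1.28 ± 0.41 (limma adjusted p = 0.0772), and normexp correction ended both calls, at -0.15 under vehicle (limma adjusted p = 0.915) and -1.40 under Dex (limma adjusted p = 0.341). The Dex change on this probe was -0.22 ± 0.27 in GR-C3 and -0.34 ± 0.27 in WT MEFs, and -0.63 ± 0.24 in WT MEFs with 11 arrays. The difference between the probes was not tested, and the Tek result depends on which of them is read. A_51_P130374 is annotated to a RefSeq transcript of Tek. A_52_P234087, which stands for Tek in the counts of genes, is annotated to an entry outside RefSeq.

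**Figure D2:**
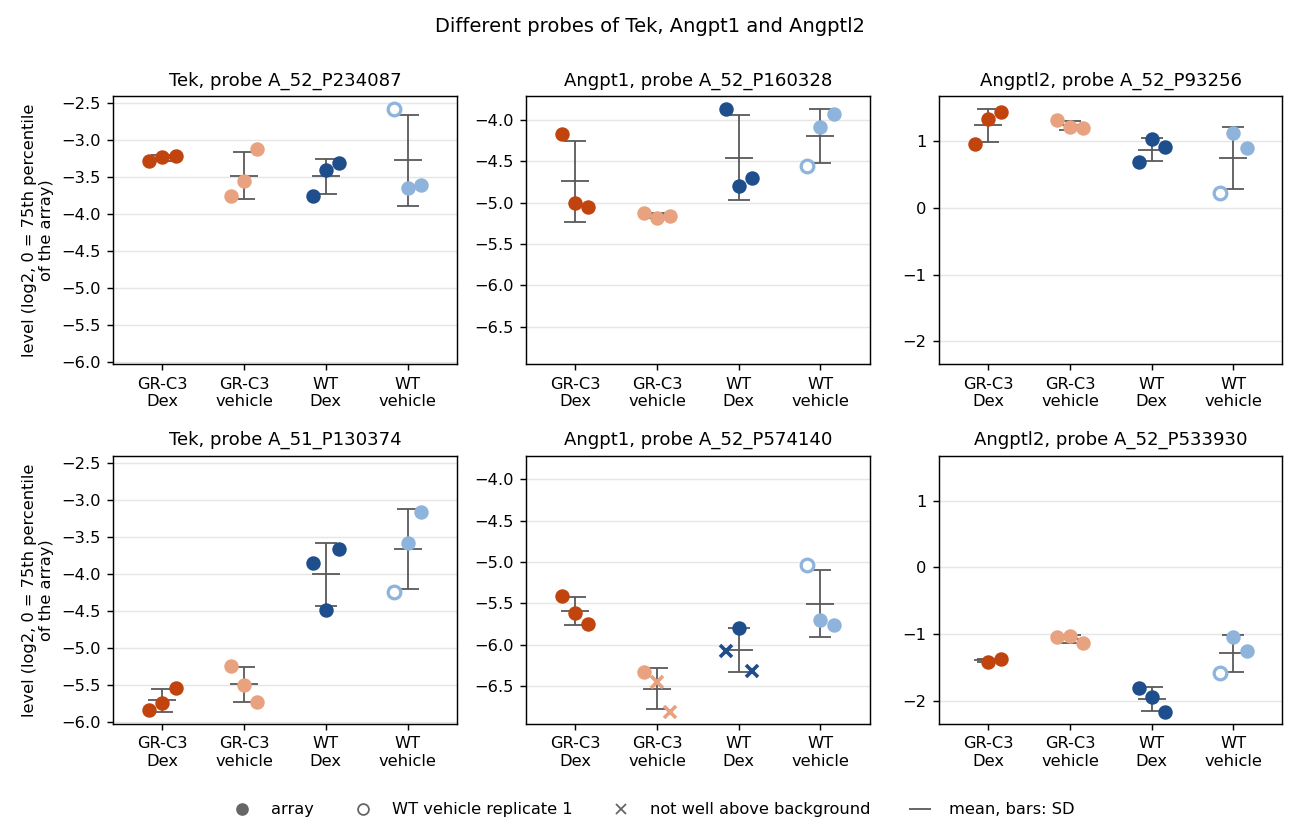
Levels on each array (vertical axis, log2 over the array's 75th percentile, the same scale for both probes of a gene) for a pair of probes each of Tek, Angpt1 and Angptl2. Points are arrays, the open circle is WT vehicle replicate 1, crosses are spots not well above background, lines are means and bars are SDs. The upper Tek probe shows the genotypes mixed and the lower one shows all 6 GR-C3 arrays below all 6 WT arrays.

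Tie1, the receptor that modulates Tek, was not measured above background in these fibroblasts. Its levels were -8.73, -8.48 and -7.85 in GR-C3 Dex and -8.80, -8.24 and -8.33 in GR-C3 vehicle MEFs, against -8.67, -8.50 and -8.93 in WT Dex and -8.99, -9.16 and -9.06 in WT vehicle MEFs. The lowest levels that counted as well above background were -6.95 to -6.01 over the 12 arrays, so Tie1 lay below that limit on each of them and no fold is given.

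Angptl2 passed in no tested comparison on the probe that stands for the gene. On this probe, A_52_P93256, the levels were 0.96, 1.33 and 1.43 in GR-C3 Dex and 1.31, 1.20 and 1.19 in GR-C3 vehicle MEFs, against 0.68, 1.03 and 0.91 in WT Dex and 0.22, 1.12 and 0.90 in WT vehicle MEFs. The genotype difference was 0.49 ± 0.21 under vehicle (limma adjusted p = 0.12) and 0.37 ± 0.21 under Dex (limma adjusted p = 0.208), and 0.23 ± 0.16 under vehicle with 11 arrays. The GR-C3 vehicle arrays lay above the WT vehicle arrays, and WT vehicle replicate 1 was the lowest of all 12. The Dex change was 0.00 ± 0.21 in GR-C3 and 0.13 ± 0.21 in WT MEFs. Probe A_52_P853177 gave 0.55 ± 0.27 under vehicle and 0.29 ± 0.27 under Dex, and passed in neither.

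The third Angptl2 probe, A_52_P533930, which like A_52_P853177 and unlike A_52_P93256 is not annotated to a RefSeq transcript, differed. Its levels were -1.41 and -1.38 in GR-C3 Dex MEFs, where the spot of replicate 1 carried a non-uniformity outlier call, against -1.05, -1.02 and -1.14 in GR-C3 vehicle MEFs. They were -1.81, -1.95 and -2.16 in WT Dex MEFs, against -1.58, -1.04 and -1.26 in WT vehicle MEFs. The WT Dex arrays lay below the other 3 groups. The genotype difference under Dex was 0.58 ± 0.17 (log2, SE, limma adjusted p = 0.0266 over all probes kept, and -0.057 with normexp correction). The call held in 9 of the 12 fits that left out 1 array each. With the outlier spot kept the difference was 1.27 (limma adjusted p = 0.0535), which ended the call, and the GR-C3 Dex change turned to 0.37. Under vehicle the difference was 0.22 ± 0.15 (limma adjusted p = 0.315). The Dex change was -0.33 ± 0.17 in GR-C3 and -0.68 ± 0.15 in WT MEFs. The other Angptl2 probes, A_52_P93256 and A_52_P853177, had Dex changes of 0.13 and 0.25 in WT MEFs with 12 arrays. With 11 arrays they had -0.14 and -0.078, against -0.83 on A_52_P533930, so the direction differed between the probes with 12 arrays and was shared with 11.

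Counted over the 5 genes in the fit, 3 passed between the genotypes under vehicle (Angptl4 and Angpt2 higher, Angpt1 lower in GR-C3) and 2 under Dex (Angptl4 and Angpt2). Of all 20850 genes, 24.7% passed under vehicle and 29.4% under Dex with 12 arrays, and 27.3% and 40.5% with 11, so passing is common between these genotypes. The median genotype difference over all genes was 0.11 under vehicle and 0.12 under Dex, small beside the differences of Angptl4 and Angpt2. For the difference between the Dex changes 0 of the 5 passed, beside 0% of all genes with 12 arrays (limma, with 1277 genes at an unadjusted p under 0.05) and 1.14% with 11. With normexp correction 1 of the 5 passed under vehicle (Angpt2) and 0 under Dex, beside 377 and 446 of all 20850 genes. For Dex, 0 of the 5 passed in either genotype with 12 arrays, beside 0.101% of all genes in GR-C3 and 0.12% in WT MEFs. With 11 arrays Angptl4 passed in both, beside 3.45% in GR-C3 and 12.2% in WT MEFs, and nothing is read from these Dex counts because the choice of genes used them.

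**Figure D3:**
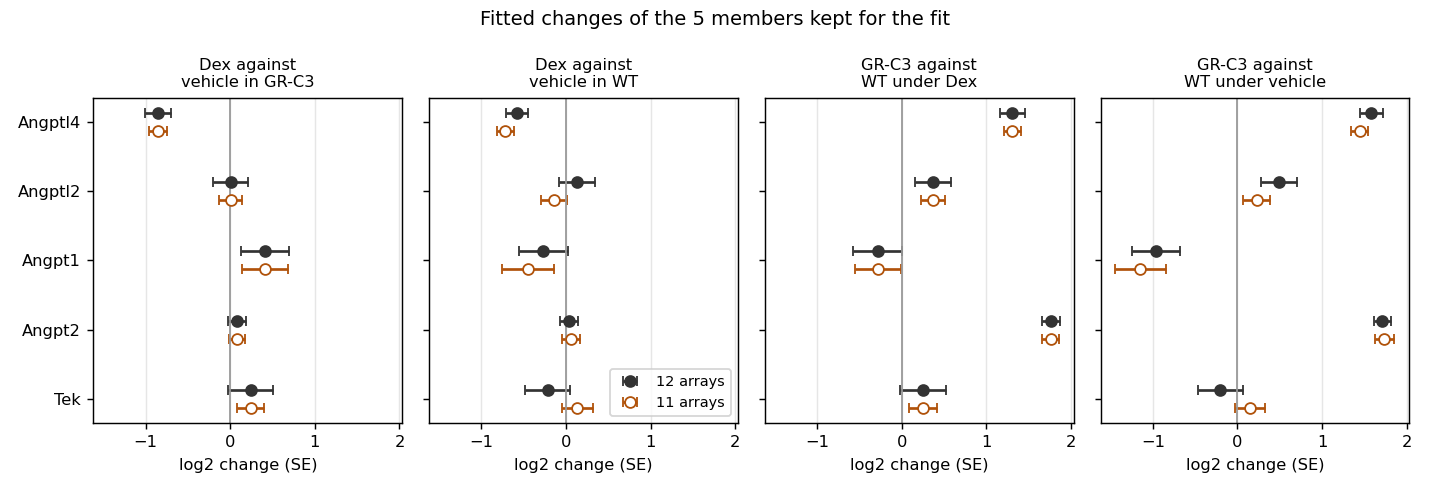
Fitted log2 change of each of the 5 genes in the fit (horizontal axis, bars are SEs) for Dex against vehicle in each genotype and GR-C3 against WT under each treatment. Filled points use 12 arrays and open points the 11 without WT vehicle replicate 1. Angptl4 and Angpt2 lie to the right of 0 in both genotype panels, from 1.31 to 1.76, and Angptl4 lies to the left of 0 in both Dex panels.

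Of the other genes of these families, Angptl7 and Angpt4 rose with Dex once WT vehicle replicate 1 was left out. Angptl7, a secreted protein that glucocorticoids are known to raise in the human trabecular meshwork of the eye, had levels of -1.98, -1.67 and -1.56 in GR-C3 Dex MEFs, against -3.45, -3.24 and -3.46 in GR-C3 vehicle MEFs. It had levels of -1.28, -1.41 and -1.50 in WT Dex MEFs, against -1.47, -3.52 and -3.79 in WT vehicle MEFs. Both Dex groups lay far above vehicle apart from WT vehicle replicate 1, which lay among the WT Dex arrays. The Dex change was 1.64 ± 0.13 in GR-C3 (log2, SE, limma adjusted p = 0.000136) and 2.26 ± 0.15 in WT MEFs (limma adjusted p = 1.35e-05) with 11 arrays, and 1.64 ± 0.46 and 1.53 ± 0.46, neither passing, with 12. The 11-array p-values of Angptl7, and below of Angpt4, are not independent of the choice to leave that array out.

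Angpt4, a further angiopoietin ligand of Tek, had levels of -2.17, -1.80 and -1.80 in GR-C3 Dex MEFs, against -2.68, -2.70 and -2.63 in GR-C3 vehicle MEFs. It had levels of -1.82, -1.41 and -1.62 in WT Dex MEFs, against -2.22, -2.50 and -2.61 in WT vehicle MEFs. Dex and vehicle did not overlap in either genotype. With 11 arrays the Dex change of Angpt4 was 0.75 ± 0.13 in GR-C3 (limma adjusted p = 0.0137) and 0.94 ± 0.15 in WT MEFs (limma adjusted p = 0.00254), and with 12 arrays it passed in neither (adjusted p = 0.0861 and 0.0664, limma). Neither gene passed for the difference between the Dex changes.

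Angptl6 and Angptl1 passed for Dex in neither genotype. Angptl6, a circulating factor with metabolic effects, had a Dex change of -0.22 ± 0.10 in GR-C3 and -0.31 ± 0.10 in WT MEFs. Angptl1 had a Dex change of -0.42 ± 0.22 in GR-C3 and -0.12 ± 0.22 in WT MEFs. Among the 4 of these family genes in the fit, 0 passed between the genotypes under either treatment. A second Angptl6 probe, A_52_P319199, was lower in GR-C3 than in WT MEFs under Dex by -0.23 ± 0.096 (limma adjusted p = 0.0898 over all probes kept). With 11 arrays that difference passed (limma adjusted p = 0.0341).

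**Figure D4:**
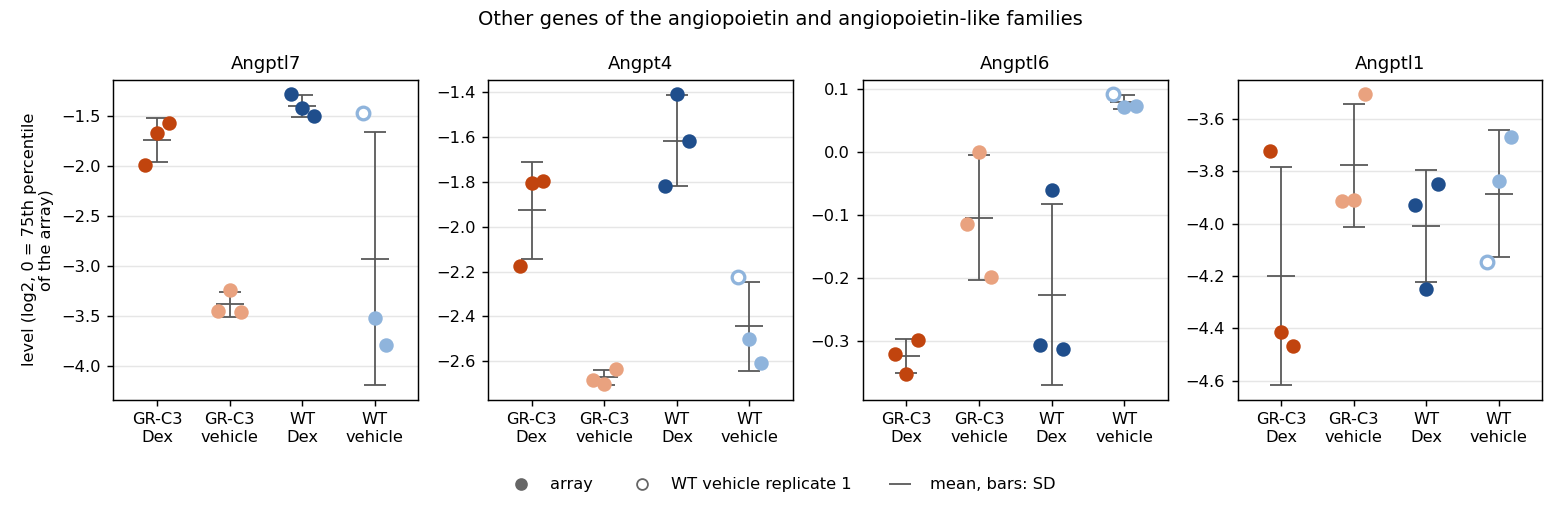
Levels of Angptl7, Angpt4, Angptl6 and Angptl1 on each array (vertical axis, log2 over the array's 75th percentile) by group. Points are arrays, the open circle is WT vehicle replicate 1, lines are means and bars are SDs. For Angptl7 the open circle lies at -1.47 among the WT Dex arrays, while the other WT vehicle arrays lie at -3.52 and -3.79.

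Lipoprotein lipase, the enzyme that Angptl4 inhibits, was higher in GR-C3 MEFs together with Angptl4. Lpl had levels of -0.17, -0.21 and -0.16 in GR-C3 Dex and -0.07, -0.17 and -0.20 in GR-C3 vehicle MEFs, against -1.84, -1.14 and -1.46 in WT Dex and -1.70, -1.39 and -1.34 in WT vehicle MEFs. It was higher by 1.33 ± 0.16 under vehicle (log2, SE, limma adjusted p = 0.000202) and by 1.30 ± 0.16 under Dex (limma adjusted p = 0.00023). Of 12 genes of the lipase axis in the fit, 2 were higher and 2 lower in GR-C3 under vehicle, with a median difference of 0.08, beside 24.7% of all genes that passed. The count of 4 fell to 1 with the slide as a block and to 1 with normexp correction. Beside Lpl these were Lipg (endothelial lipase, 0.79 ± 0.17), Pcsk6 (a proprotein convertase that can cleave Angptl4, -1.85 ± 0.11) and Vldlr (the VLDL receptor, -0.51 ± 0.14). For Dex 0 of the 12 passed in either genotype with 12 arrays, and with 11 only Pcsk5, another convertase, passed, in WT MEFs (0.63 ± 0.12).

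Of the 14 genes of the Tie receptor pathway outside the 6, 0 passed for Dex in either genotype with 12 arrays. With 11 arrays 0 passed in GR-C3 and 4 in WT MEFs, beside 3.45% and 12.2% of all genes, and in WT MEFs Itga5, an integrin subunit (1.25 ± 0.15), and Pik3r1 (0.94 ± 0.22) rose while Grb14 (-0.42 ± 0.10) and Nos3 fell. Nos3, the endothelial nitric oxide synthase, was not well above background on any WT Dex array. Its mean level was -5.89 there, against -4.97 in WT vehicle MEFs with 11 arrays and -5.35 with 12. WT vehicle replicate 1, at -6.12, lay below all WT Dex arrays, and no fold is given. Between the genotypes under vehicle 1 was higher in GR-C3 MEFs (Grb14, an adaptor of receptor kinases, 0.75 ± 0.11) and 2 were lower (Svep1, a matrix protein known to bind Tie1, -0.89 ± 0.12, and Pik3r1, the regulatory subunit of PI3 kinase, -1.06 ± 0.31, and -0.65 with limma adjusted p = 0.0507 in 11 arrays). These 3 of 14 stand beside 24.7% of all genes, and the count was 5 with 11 arrays, 1 with the slide as a block and 0 with normexp correction. The median difference of the 14 was -0.07, against 0.11 over all genes.

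Genes known to be induced by glucocorticoids were higher with Dex, the opposite sign to Angptl4. With 11 arrays 10 of the 11 in the fit rose in GR-C3 MEFs and all 11 in WT MEFs, beside 3.45% and 12.2% of all genes. The median changes were 1.92 in GR-C3 and 2.63 in WT MEFs. With 12 arrays 0 of the 11 passed in either genotype, at medians of 1.92 and 1.69. WT vehicle replicate 1 was left out with its level of Fkbp5, a gene of this list, known. The 11-array calls are not independent of that choice. In the 11-array fit Fkbp5 rose by 3.07 ± 0.14 in GR-C3 and by 4.73 ± 0.15 in WT MEFs, and Errfi1, a feedback inhibitor of the EGF receptor, by 0.87 ± 0.09 and by 2.63 ± 0.10. Of 11 PPAR targets in the fit, Pdk4, the kinase that switches off pyruvate dehydrogenase, was the 1 that passed for Dex with 11 arrays, by 1.47 ± 0.11 in GR-C3 and by 2.50 ± 0.12 in WT MEFs. Pdk4 and Angptl4 also differed in the sign of the genotype difference, which for Pdk4 was -1.90 ± 0.44 under vehicle (limma adjusted p = 0.00973), and -1.20 ± 0.12 with 11 arrays (limma adjusted p = 9.03e-05). The PPAR targets went both ways between the genotypes. With 12 arrays 2 of the 11 were higher and 2 lower in GR-C3 under vehicle, beside 24.7% of all genes. Under Dex 2 were higher and 4 lower, beside 29.4%.

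Of 9 hypoxia targets in the fit, 1 rose with Dex in GR-C3 MEFs with 11 arrays, Ndrg1 (0.65 ± 0.09), and 4 in WT MEFs, namely Ndrg1, Ankrd37, Bnip3 and Egln3, beside 3.45% of all genes in GR-C3 and 12.2% in WT MEFs. With 12 arrays 0 of the 9 passed for Dex in either genotype. Egln3, an oxygen sensor and target of hypoxia-inducible factors, was higher in GR-C3 than in WT MEFs by 2.04 ± 0.09 under vehicle (limma adjusted p = 2.37e-07), as was Pgk1, a glycolytic enzyme (0.64 ± 0.09), while Bnip3, a mitophagy receptor, was lower (-0.70 ± 0.22, and -0.38 ± 0.105 with limma adjusted p = 0.0239 in 11 arrays). These 3 of the 9 stand beside 24.7% of all genes, and the count was 5 with 11 arrays, 2 with the slide as a block and 0 with normexp correction. Among the PPAR receptors and partners in the fit, Ppargc1b, a coactivator, was higher in GR-C3 than in WT MEFs under vehicle (0.61 ± 0.10). Ppara was lower, with 1 of 3 GR-C3 vehicle arrays well above background.

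**Figure D5:**
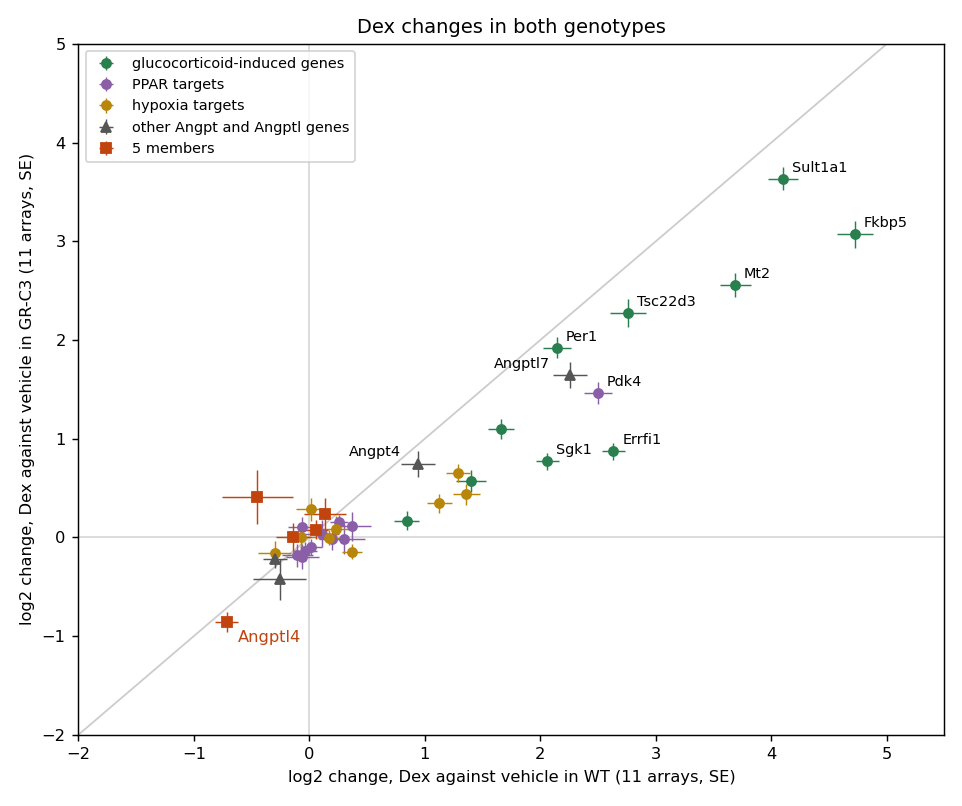
Log2 change for Dex against vehicle in GR-C3 MEFs (vertical axis) and in WT MEFs (horizontal axis) in the 11-array fit, with SE bars, for the 5 genes in the fit, the other family genes, and the lists of glucocorticoid-induced genes, PPAR targets and hypoxia targets. Lcn2 is not drawn because it was not well above background in GR-C3 vehicle MEFs, and the line marks equal changes. Angptl4 lies at -0.85 in GR-C3 and -0.72 in WT MEFs, below and left of 0, while Angptl7 lies at 1.64 in GR-C3 and 2.26 in WT MEFs beside the glucocorticoid-induced genes.

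The genes whose level was most like that of a member over the arrays are given as a description. For Angpt2, B3galt5, Plac8 and Alx1 were among the 5 most alike with both 12 arrays (Pearson r of 0.996, 0.995 and 0.992) and 11. For Angptl4, over the 11 arrays with a value, Evi2a, Apol9b, Ndc1 and Zfp975 were among the 5 most alike (r of 0.993, 0.992, 0.991 and 0.988) and stayed so without WT vehicle replicate 1. Angptl4 lies outside the naming rule because of its missing array and was added after its values were seen. For Angptl2 only Rftn1 (r = 0.978) and for Angpt1 only Sh3bgrl and Rbm48 (r = 0.93 and 0.923) were among the 5 in both sets of arrays, and for Tek none was. The points share genotype, treatment, slide and scaling, and the arrays fall into 2 genotypes.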

How the data were processed

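The 12 arrays were taken from the authors' deposited scanner files, whose intensity values are on a linear scale and, per the file headers, come from Agilent Feature Extraction 9.5.3.1 (9.5 per the submitters' processing notes). The processed signal is the authors' background-subtracted intensity; the deposited series matrix held the same value for all 45018 spots. The 1639 control spots were dropped, as were those called outliers, and repeated spots of a probe were averaged. The log2 signal minus the array's 75th percentile (883 to 1815) was fitted. A probe was kept if well above background (70.6 to 78.4% of probes per array) on all arrays of at least 1 group (30923 probes), and the probe with the highest mean stood for its gene (20850 genes). Some gene names were updated through a RefSeq table. Groups came from the labels. The model was limma 3.58.1 in R 4.3.3 (1 coefficient per group, eBayes), with Benjamini-Hochberg adjustment over all genes, or over all probes kept where a single probe is described, and 0.05 as the threshold. The number of arrays limits the precision. The members and gene lists were chosen with earlier results of these data known. Named genes were all members, up to 4 called genes with the smallest p of each list in the comparison described (up to 2 of the brightest where none was called), the 5 genes most alike and Fkbp5; exceptions are marked, and some genes of the lists are not reported here. The alternatives were other background corrections, normalizations, filters and probe rules, the slide or the replicate number as a block, and each array left out. The fit was tested on simulated data.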

Additional observations from a re-analysis of the deposited data

Results flagged for a closer look

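Without WT vehicle replicate 1, the difference of the Dex changes, GR-C3 minus WT, passed (limma, adjusted over all genes) for 10 genes of the pathway and marker lists, beside 1.14% of all genes. These were 4 of 11 glucocorticoid-induced genes, 2 of 9 hypoxia targets, 1 of 11 PPAR targets and 1 of 8 PPAR receptors and partners. The marker lists gave 1 of 10 endothelial and 1 of 8 mural genes, and the remaining lists 0. For 1 of the 10, Ppara, no difference is given, because it was not well above background on any GR-C3 Dex array. For the other 9 it was -1.76 for Errfi1 (adjusted p = 0.000455), -1.29 for Sgk1 (0.00268), -1.65 for Fkbp5 (0.00645), -1.13 for Mt2 (0.0196), -1.03 for Pdk4 (0.0192), -0.92 for Ankrd37 (0.0276) and -0.78 for Bnip3 (0.0322), so each had the smaller Dex change in GR-C3 MEFs. The mural marker Kcnj8 and the VEGF receptor Kdr had the opposite sign, at 0.90 (0.0133) and 1.10 (0.0127). In the fit over all probes, Angpt1 probe A_52_P574140 had 1.27 (0.0488), but it was well above background on only 1 of 3 GR-C3 vehicle and 1 of 3 WT Dex arrays, so this value rests largely on spots near background. The array was left out with its Fkbp5 level known, and on it Fkbp5 (1.51) and Pdk4 (3.46) lay near the WT Dex arrays. Leaving it out enlarges the WT Dex changes of Fkbp5 and Pdk4, but not those of Kcnj8 and the Angpt1 probe. The p-values here are not independent of that choice. With all 12 arrays 0 genes passed for this difference by limma, and 1277 had an unadjusted p under 0.05.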

How the results depend on the processing

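All log2 values here are from limma. Angptl4 and Angpt2 were called between the genotypes under both treatments in each of the 12 fits that left out 1 array. The genes called among the 5 then ranged from 2 to 3 under vehicle, were 2 under Dex and 0 for the difference between the Dex changes, and ranged from 0 to 1 for Dex in each genotype; the 1 came without WT vehicle replicate 1. That array also moved the genes called over the whole table to 720 for Dex in GR-C3 and 2543 in WT MEFs, against 21 and 25 with all arrays; over the other settings these counts ran from 0 to 697 and from 0 to 1018. Under vehicle 3233 genes were called without GR-C3 vehicle replicate 2, under Dex 3987 without GR-C3 Dex replicate 3 and 3220 with the slide as a block, and for the difference between the Dex changes up to 238, against 0 with all arrays. Angptl4's Dex change ranged from -0.91 to -0.80 in GR-C3 and from -0.72 to -0.48 in WT MEFs. Left-out arrays turned values that did not pass: Angpt1 under Dex ranged from -0.57 to 0.011, Tek under vehicle from -0.39 to 0.15, and the difference between the Dex changes from -0.059 to 0.11 for Angpt2, from -0.31 to 0.14 for Angptl2, from -0.46 to 0.062 for its probe A_52_P853177 and from -0.12 to 0.41 for Tek probe A_51_P130374.

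Normexp correction, in which single spots have very high local backgrounds, left 377 and 446 genes called between the genotypes under vehicle and Dex, against 5151 and 6140, and 1 and 0 of the 5 genes. The median Dex change over all genes was then 0.099 in GR-C3 and 0.55 in WT MEFs, against -0.011 and -0.0016 in the main fit. For the genotypes the median was 0.29 under vehicle and -0.40 under Dex, against 0.11 and 0.12. The normexp values of single genes stand beside these medians. The correction gave Angptl4 a Dex change of -0.75 in GR-C3 and 0.23 in WT MEFs. It turned Angpt1 (0.23 under vehicle, -1.37 for the difference between the Dex changes), its probe A_52_P574140 (0.62 under vehicle, -1.02 under Dex, -1.64), Tek (0.24, -0.77, -1.003), Angptl2 probe A_52_P533930 (-0.057 under Dex, -0.31), Angpt2 (-0.67) and Tek probe A_51_P130374 (-1.25), the last 2 for the difference between the Dex changes. With outlier backgrounds replaced, A_52_P574140 was 0.015 under vehicle, A_51_P130374 -0.068 for that difference and Angptl4's GR-C3 Dex change -0.77; with normexp and quantile normalization that change was -0.69. For Dex 1 of the 5 passed in each genotype under normexp with quantile normalization and under the slide as a block, and 1 in GR-C3 MEFs under quantile normalization and under the arrays of the comparison alone. Of all 20850 genes, 66 in GR-C3 and 134 in WT MEFs passed in the first setting, and 317 and 1018 in the second. The last 2 settings called 126 and 697 genes in GR-C3 MEFs. Nothing is read from these Dex counts or those above, because the choice of genes used the Dex change of Angptl4. The slide as a block gave Angptl4 -0.78 for Dex in WT MEFs, turned Angpt1 (0.018) and Tek (-0.41) under Dex, Angptl2 (-0.041) and its probe A_52_P853177 (-0.14) under vehicle, and the difference between the Dex changes of Angpt2 (-0.073), Angptl2 (0.38) and that probe (0.41), and left 1628 genes called under vehicle. The mean of all kept probes called 4 of the 5 genes under Dex. There it turned Tek to -0.73, which passed (limma adjusted p = 0.00185), and Angpt1 to 0.093. Angptl2 passed there too, at 0.61 (limma adjusted p = 0.0297), with its flagged spot missing from the mean on GR-C3 Dex replicate 1. Under vehicle this mean gave Tek -1.02, which also passed (limma adjusted p = 0.000236). For the difference between the Dex changes it turned Angptl2 to 0.19. Keeping outlier spots, chosen after seeing the data, called 1 gene under Dex and gave Angptl4 1.09 for Dex in GR-C3 MEFs and 1.67 for the difference between the Dex changes. The cause of these shifts was not tested.

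Same-numbered arrays did not deviate together more than others (18 pairs, r of -0.22 to 0.21, median 0.0081). The 36 pairs with different numbers had r of -0.29 to 0.29, median -0.0050. The labels do not say what the numbers stand for, and these correlations cannot show it. With the replicate block Angptl4 was 1.58 under vehicle and 1.37 under Dex, Angpt2 1.71 and 1.76 and Angpt1 -0.96 under vehicle, all called as before; Angptl2 probe A_52_P533930 under Dex was 0.56 (adjusted p = 0.067). Few arrays, spots near background for Angpt1 and Tie1, and slides that hold 1 genotype per treatment limit these comparisons.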
